A study of Caenorhabditis elegans with 40 samples.

Results

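In C. elegans, genes with the prefix col- encode small collagens, most of them of the cuticle. Every gene of the RNA table whose symbol starts with col- was taken as a member, except 2 that the rule left out, col-38 and col-71, which gave 85 members of 9532 genes in all. The rule used no measured value, but only genes with a row in the RNA table could be members. The genome annotation holds 154 col- genes apart from the 2 left out, so the 85 members are a part of the family. How genes came to be in that table was not examined. Cuticle collagens named for a body shape (dpy-, rol-, sqt- or bli- genes) are not members.

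The cuticle is an extracellular coat that the hypodermis secretes anew before each moult. Its collagens carry runs of Gly-X-Y triplets, in which glycine recurs at a fixed spacing and X and Y are often proline, and the chains wind into trimers that are processed, secreted and cross-linked. Different collagen genes are used at different larval stages and in the adult, and within each moult cycle they are switched on in successive waves, so that their RNA levels change with the stage and with the time since the last moult.

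RNA-seq and ribosome profiling (Ribo-seq) were done on whole animals grown at 16 °C. Mutants heterozygous for a null allele of 1 ribosomal protein gene were compared with wild-type animals that carried the same balancer, a rearranged chromosome that stops recombination with the mutant chromosome. The mutants were rpl-33(0)/+ (allele cc2558, R9X) and rpl-5(0)/+ (allele cc5998, A166X), both over mIn1, rps-10(0)/+ (allele cc2557, T8X) over tmC20, and rps-23(0)/+ (allele cc5994, A67X) over tmC5. All mutants were collected at day 4, and by the labels they were L4 larvae, although the first RNA replicates of rpl-33(0)/+ and rpl-5(0)/+ have no stage in their labels. Controls were collected at day 3, as L4 larvae, or at day 4, most of them labelled pregravid adults. Replicate 2 of the day 4 controls of tmC20 and of tmC5 was labelled L4 for RNA. As read here, the study's strain list names unc-14(tmIs1219) and dpy-5(tm9715) on tmC20, F36H1.3(tmIs1220) on tmC5 and no allele for mIn1. Of these dpy-5(tm9715) is an allele of a cuticle collagen gene, and both the rps-10(0)/+ animals and their controls carry it. The study's methods describe animals homozygous for mIn1 as dumpy, the body shape of dpy- genes. Whether mIn1 also carries a collagen allele was not examined. The study's methods describe independent biological replicates, the labels do not tie libraries to cultures, and p-values measure the spread between these libraries.

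Several RNA columns did not match their headings. Of 20 columns 17 were distinct. The columns of rpl-33(0)/+ were identical to those of rpl-5(0)/+, so these libraries, called the shared pair here, stand for both mutants together and cannot be assigned to either. For tmC20 replicate 2, 1 library stood under both day headings, and it was placed in neither age group. Of the 4 tmC5 columns, day 3 replicate 1 lay with the adults of the other balancers (68243 CPM, that is, normalized counts scaled to a common library size, of summed yolk genes vit-1 to vit-6 and 95.2 CPM of 7 moulting genes), and the first of 2 day 4 columns lay with the larvae (3410 and 3703 CPM). The other day 3 and day 4 tmC5 columns had 1951 and 84582 CPM of yolk RNA. Both day 4 columns share a heading, so the larval one may be replicate 2, labelled L4, and need not go against its label. Counts of members called in rps-23(0)/+ RNA are given with and without day 3 replicate 1 and the first day 4 column, a choice made after seeing the data.

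RNA libraries held between 1017787 and 2384186 counts, and all 85 members passed the filter on low counts in each RNA comparison. The targeted gene was lower in rps-10(0)/+ (1069 and 1136 CPM against 1394 to 1795 in tmC20) and in rps-23(0)/+ (715 and 808 CPM against 838 to 1205 in tmC5), while neither rpl-5 nor rpl-33 was lower in both libraries of the shared pair than in the mIn1 controls. Summed moulting genes were at 5461 to 10452 CPM in the shared pair, 5851 to 5863 CPM in mIn1 day 3 controls and 79.8 to 130 CPM in mIn1 day 4 controls. They were at 1126 to 1447 CPM in rps-10(0)/+, 764 CPM in its day 3 control and 1077 CPM in the tmC20 library under both headings. In rps-23(0)/+ they were at 4754 to 5997 CPM. Single moulting genes within the sums went in different directions. The shared pair had 1167 and 950 CPM of qua-1, against 305 and 295 CPM at mIn1 day 3, and 229 and 583 CPM of fbn-1, against 807 and 844 CPM. In rps-10(0)/+ mlt-10 (208 and 210 CPM) was below the 315 CPM of the day 3 control, and mlt-11 (673 and 470 CPM) was above its 215 CPM. The tmC20 library under both headings had 263 CPM of mlt-10 and 419 CPM of mlt-11. In RNA of whole animals, fewer cells of a type and less RNA per cell cannot be told apart.

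The collagen repeat itself was visible in the coding sequences. Of 84 members with an annotated coding sequence, 83 held runs of Gly-X-Y codons, with 49 to 199 such triplets and a median of 52. The longest unbroken run had a median of 22 triplets, and coding sequences were 831 to 2205 bases long. The most triplets were in col-135 (199), and col-99, which encodes a transmembrane collagen, held 132. The annotated frame of col-17 gave no run, and col-182 is annotated as a pseudogene. The stretches below show 10 triplets each of col-20 and col-73, the neighbouring genes with opposite stages described further on. Capitals mark the glycine codon that opens each triplet (genome sequence of RefSeq build WBcel235, minus strand, chrII:4869915-4870004 and chrII:4872407-4872496).
col-20: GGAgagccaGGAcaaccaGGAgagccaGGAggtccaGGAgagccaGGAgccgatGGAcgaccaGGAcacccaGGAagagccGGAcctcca
col-73: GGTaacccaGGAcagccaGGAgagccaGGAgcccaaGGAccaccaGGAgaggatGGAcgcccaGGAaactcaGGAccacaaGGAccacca

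Such repeats make members alike, and reads can be shared among them. In 25 members more than 20% of all 35-base words of the transcript also occurred in another gene, and in 15 members more than 50% did. A close pair was col-12 and col-13, neighbours on chromosome V whose coding sequences differed at 5 of 948 bases. Their first 60 coding bases are shown because they hold 3 of these differences, marked by capitals (minus strand, chrV:10424951-10425010 and chrV:10421833-10421892). The split of counts between such copies is uncertain, and this holds for col-93 (58.9% of its words shared with col-94), col-160 (40.3% shared with col-159, which it also overlaps on the same strand), col-146 (49.9% shared with col-147) and col-17 with col-73 (26.6%).
col-12: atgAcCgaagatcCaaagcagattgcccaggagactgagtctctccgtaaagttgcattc
col-13: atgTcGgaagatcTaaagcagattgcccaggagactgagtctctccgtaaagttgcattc

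Upstream of the genes, members often held the TATA box letters TATAAA. In the 200 bases before the annotated gene start, the letters were found on either strand in 52 of 85 members (61.2%) and in 6075 of 19984 coding genes (30.4%). Counting only the gene's own strand and the last 60 bases, 42 members (49.4%) and 1890 genes (9.46%) had a match, and the median position over the members was -31 bases from the start. By stage, as defined below, the letters were in 11 of 22 members high at day 4, in 35 of 55 members high at day 3 and in 6 of the other 8. The nuclear receptor half-site AGGTCA, searched on both strands, was in 12 members (14.1%) and in 5.93% of all genes. Other letters searched in the same way, with N for any base, were not all more frequent in members. For TGATAA the shares were 25.9% of members and 22.6% of all genes, and for GTTTNTTTC 4.71% and 4.66%. By contrast TTTCNNTTT was less frequent in members, at 23.5% against 33.2%. A match describes the letters only, and no match says only that the letters are not in this window. The windows below belong to neighbours with opposite stages and to col-41 and col-175, the members most changed in the shared pair against day 3. Capitals mark TATAAA and its reverse complement TTTATA, which overlap once in col-39 (RefSeq build WBcel235, read along the gene: chrII:4867577-4867776, minus; chrII:4870792-4870991, minus; chrII:4873130-4873329, minus; chrII:10704716-10704915, plus; chrII:10707001-10707200, plus; chrX:15176482-15176681, minus; chrX:9234619-9234818, minus).
col-17: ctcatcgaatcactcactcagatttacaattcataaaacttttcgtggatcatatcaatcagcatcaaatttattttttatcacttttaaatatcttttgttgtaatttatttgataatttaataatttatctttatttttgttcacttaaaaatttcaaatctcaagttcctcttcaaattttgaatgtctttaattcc
col-20: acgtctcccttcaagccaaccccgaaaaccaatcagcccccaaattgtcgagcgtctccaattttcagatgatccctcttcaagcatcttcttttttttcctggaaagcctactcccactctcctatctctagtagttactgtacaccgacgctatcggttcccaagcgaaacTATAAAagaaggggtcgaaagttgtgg
col-73: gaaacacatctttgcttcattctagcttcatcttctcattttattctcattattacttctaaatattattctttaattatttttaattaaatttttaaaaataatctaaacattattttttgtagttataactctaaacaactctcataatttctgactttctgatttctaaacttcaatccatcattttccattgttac
col-39: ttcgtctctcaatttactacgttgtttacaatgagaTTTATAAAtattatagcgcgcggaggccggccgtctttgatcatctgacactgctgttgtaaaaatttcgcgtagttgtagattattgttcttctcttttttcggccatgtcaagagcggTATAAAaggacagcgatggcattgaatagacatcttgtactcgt
col-80: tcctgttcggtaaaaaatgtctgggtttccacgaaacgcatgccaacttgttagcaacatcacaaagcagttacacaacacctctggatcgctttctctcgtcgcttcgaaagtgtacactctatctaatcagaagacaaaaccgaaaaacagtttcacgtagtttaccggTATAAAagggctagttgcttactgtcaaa
col-41: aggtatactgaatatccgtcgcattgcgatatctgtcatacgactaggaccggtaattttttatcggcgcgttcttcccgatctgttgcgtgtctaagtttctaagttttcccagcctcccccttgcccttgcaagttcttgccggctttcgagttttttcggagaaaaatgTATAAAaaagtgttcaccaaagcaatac
col-175: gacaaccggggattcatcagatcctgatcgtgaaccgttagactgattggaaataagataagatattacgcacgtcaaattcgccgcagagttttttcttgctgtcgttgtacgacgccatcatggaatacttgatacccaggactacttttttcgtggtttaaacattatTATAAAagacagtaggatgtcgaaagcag

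Together the 85 members took between 2.28% and 6.61% of the counts of a library, and without the highest member of each library the share was still 2.04% to 6.24%. The share was 3.13% and 3.02% in the shared pair, 2.60% and 3.09% in mIn1 day 3 controls, and 2.28% and 5.61% in mIn1 day 4 controls. It was 6.05% and 5.76% in rps-10(0)/+ and 5.43% to 6.61% in tmC20 controls. In rps-23(0)/+ it was 4.17% and 4.15%, within the 3.12% to 4.66% of tmC5 controls. The mIn1 day 4 controls thus enclosed both libraries of the shared pair, and every rps-10(0)/+ and rps-23(0)/+ library lay within the range of its own controls.

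**Figure D1:**
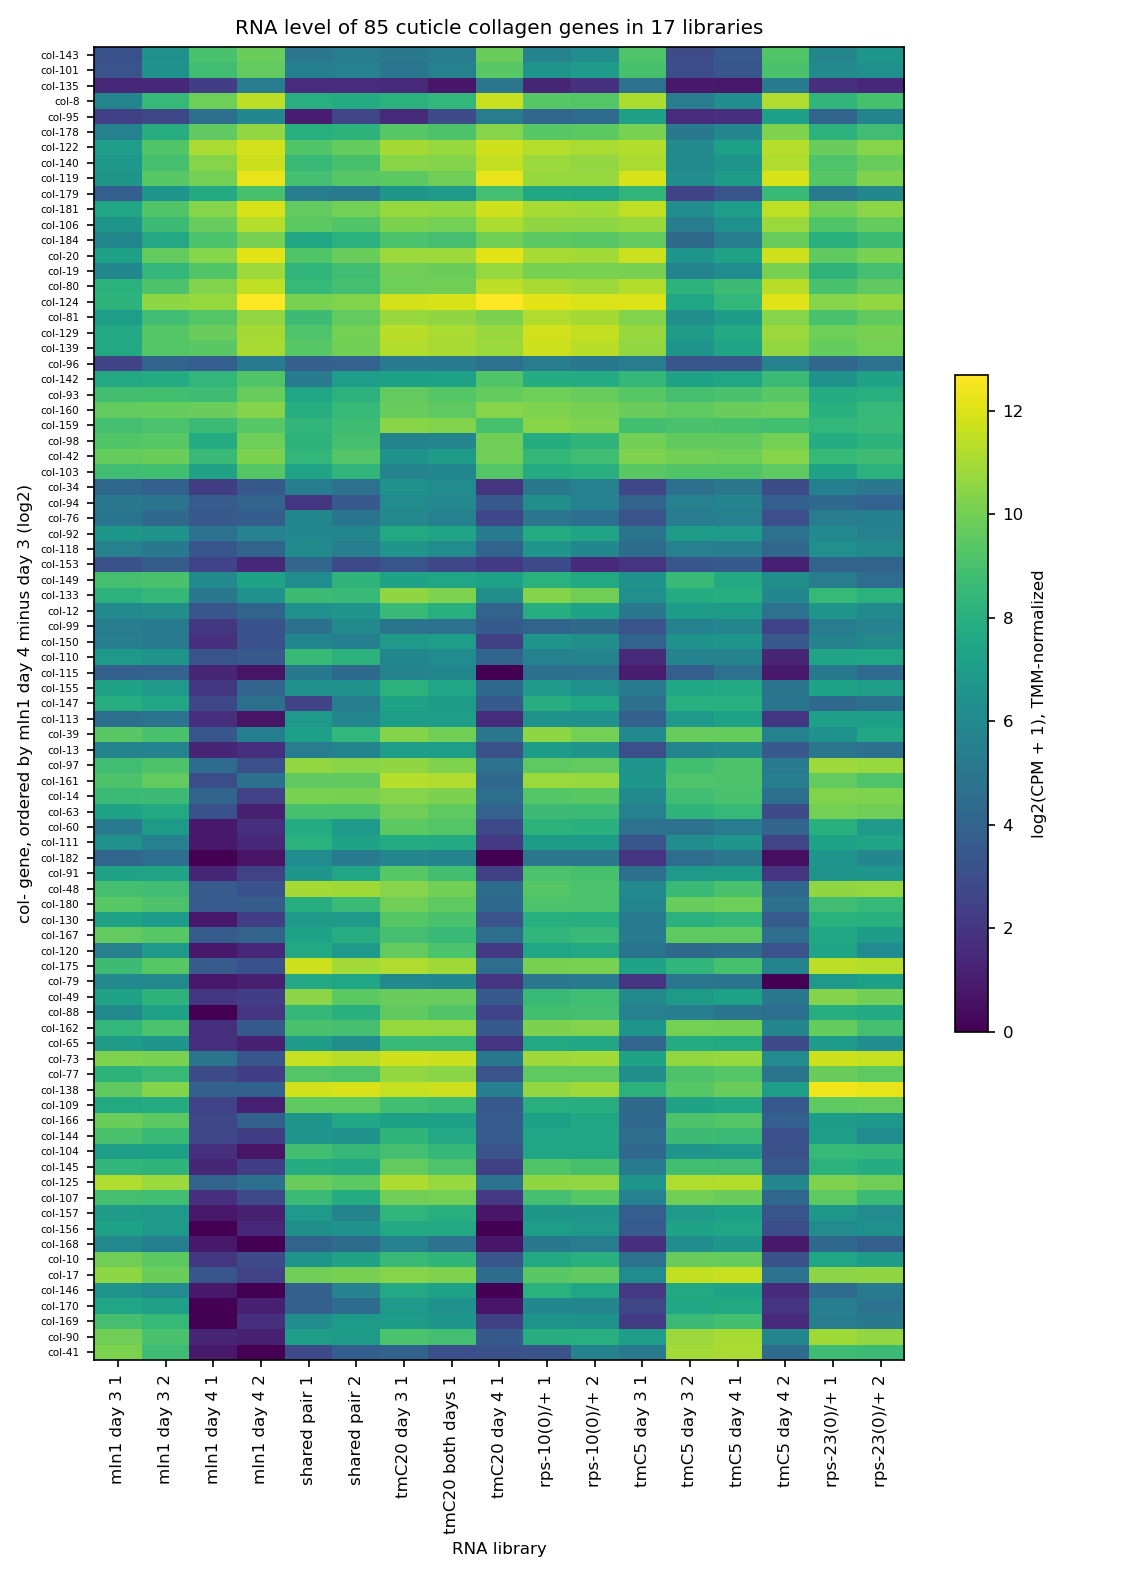
Level of each member in each of the 17 distinct RNA libraries, as log2 of CPM plus 1 (colour), with members ordered by their log2 change between mIn1 day 3 and day 4. Members high at day 4 are bright in the libraries of adults and in day 3 replicate 1 of tmC5. Members high at day 3 are dark in the same libraries. Members high at day 4 are not bright there alone. Their sum was 22807 CPM in the tmC20 day 3 control and 21764 CPM in the tmC20 library under both headings. It was 31404 and 28103 CPM in the rps-10 mutant, and 17555 CPM in the first mIn1 day 4 column.

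Per kb of transcript, levels averaged over all libraries ran from 4.44 CPM per kb (col-135) to 2474 CPM per kb (col-124), with a median of 284 CPM per kb. The highest after col-124 were col-138 (2195 CPM per kb), col-119 (1849 CPM per kb), col-20 (1748 CPM per kb) and col-73 (1705 CPM per kb). These means hide large changes, since the most abundant member of a library was col-138 in the shared pair and rps-23(0)/+, col-124 in rps-10(0)/+, col-125 in mIn1 day 3 controls, and col-122 or col-124 in mIn1 day 4 controls. Counts reached 10 in every library for 40 members, and 10 members were at 0 in at least 1 library.

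The comparison of mIn1 controls asks how the collagens differ between day 3 larvae and day 4 adults without any mutation. Of 85 members, 77 differed, 22 higher and 55 lower at day 4, and 8 did not pass the test (edgeR quasi-likelihood F test, Benjamini-Hochberg adjusted p under 0.05). Of all 9366 genes tested 43.9% were called, 21.9% higher and 22% lower. The median log2 fold change was -3.64 over the members and -0.01 over all genes, and fitted values of single members ranged from -10.83, which rests on 1 count at day 4, to 4.20.

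Several members of the larval class were near 0 in adults, while the smallest fall in the class was a log2 fold change of -1.07. For col-41 the levels were 1154 and 428 CPM at day 3 and 0.808 and 0 CPM at day 4. Only 1 count remained at day 4 against 3202 at day 3, a ratio of 2666 with an exact 95% interval of 478 to 105332 that covers counting error only. The day 3 and day 4 libraries did not overlap. For col-90 they were 968 and 524 CPM at day 3 and 1.62 and 1.17 CPM at day 4 (log2 fold change -8.96, SE 0.45, adjusted p = 4.68e-10). For col-125, the most abundant member at day 3, they were 2325 and 1753 CPM and then 15.3 and 23.5 CPM (log2 fold change -6.63, SE 0.32). Larval expression is also what col-17 is known for, and its 1485 and 899 CPM at day 3 were followed by 9.69 and 4.7 CPM at day 4 (log2 fold change -7.36, SE 0.38). The next largest falls were those of col-169 (log2 fold change -8.16), col-170 (2 against 596 counts, a ratio of 248 with an interval of 68.4 to 2053) and col-146 (1 against 300 counts, a ratio of 249.8 with an interval of 44.5 to 9898).

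Members of the adult class rose by log2 fold changes of 1.21 to 4.20. The adult cuticle collagen col-19 was at 60.1 and 334 CPM at day 3 and at 608 and 1793 CPM at day 4 (log2 fold change 2.70, SE 0.55, adjusted p = 0.000866). The lower day 4 library was above the higher day 3 library. The largest rise was that of col-143, from 8.16 and 81.2 CPM to 529 and 895 CPM (log2 fold change 4.20, SE 0.59). It was followed by col-101 (3.90), col-135 (3.76), col-8 (3.22) and col-95 (3.16), of which col-135 lost its call without the second mIn1 day 4 column (log2 fold change 1.22, adjusted p = 0.328). Abundant members of the class included col-124, at 298 and 1458 CPM and then at 1625 and 6582 CPM, and col-122, at 137 and 612 CPM and then at 2143 and 3669 CPM. For col-19, col-143, col-124 and col-122, the second mIn1 column was above the first at either age, an order that only names the columns. At day 3 the second column also had more yolk RNA (14494 against 1751 CPM), and at day 4 it did not (101383 against 104488 CPM). The part of yolk RNA in the values was not tested.

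Summed over the classes, the 22 adult members held 2351 and 8975 CPM at day 3 and 17555 and 47818 CPM at day 4. The 55 larval members held 20487 and 18418 CPM at day 3 and 421 and 686 CPM at day 4. These sums restate the comparison that made the classes and are given as levels. The 8 members that did not pass, col-34, col-42, col-93, col-98, col-103, col-153, col-159 and col-160, had log2 fold changes between -1.56 and 0.55. With the tmC5 controls in the same fit 4 members passed, all lower at day 4, and with at least 10 counts required in every library 35 of the 41 members tested passed.

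**Figure D2:**
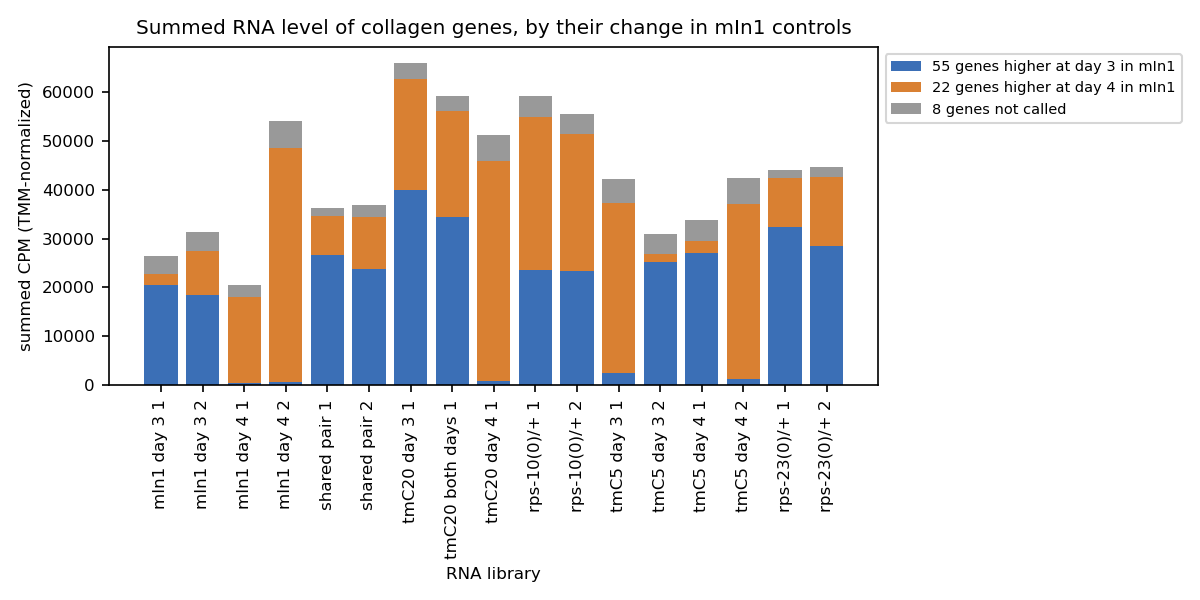
Summed CPM of the 55 members high at day 3 (blue), the 22 members high at day 4 (orange) and the 8 others (grey), stacked from 0, in each RNA library. The 55-member sum is at 18418 CPM or more in the larval mIn1 controls and below 700 CPM in the adult ones, and the tmC5 columns of each heading include 1 library of either kind.

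Collagen genes often stood next to each other, and neighbours could differ in stage. Among pairs of members less than 5000 bases apart there were 18 pairs of 30 genes, of which 13 pairs were in the same stage class. An exception was the run col-17, col-20 and col-73 on chromosome II, whose genes lie on the same strand with 2093 and 1306 bases between them. At day 4 col-20 rose from 146 and 788 CPM to 1322 and 4612 CPM (log2 fold change 2.74, SE 0.57). On its other side col-73 fell from 1210.2 and 1107 CPM to 28.3 and 9.39 CPM (log2 fold change -5.94, SE 0.37). The flanking larval genes lack TATAAA in the windows printed above, and col-20 has it. The run col-79, col-39 and col-80 also held both classes, with col-80 higher (2.35) and col-39 (-4.41) and col-79 (3 against 216 counts, a ratio of 59.9 with an interval of 20.2 to 293.0) lower at day 4, and there both printed windows hold the letters. By chromosome, all 5 members on I were in the larval class, as were 6 of 9 on II, 6 of 11 on III, 15 of 24 on IV, 14 of 22 on V and 9 of 14 on X.

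A list of 21 genes made with earlier results of these data known held enzymes that modify, process or cross-link collagen, genes of glycosylation and secretion, and 3 basement membrane collagens. Of these 17 had a row in the RNA table, and at day 4 of mIn1 controls 11 were lower and 2 higher, where 22% of all genes were called lower and 21.9% higher. The 2 higher genes were sqv-3, a glycosyltransferase, and the basement membrane collagen cle-1, while the basement membrane collagens emb-9 and let-2 were lower. The prolyl 4-hydroxylase subunits, which hydroxylate the Y-position prolines, were among those that fell, with log2 fold changes of -3.43 for dpy-18, -2.71 for phy-2 and -2.15 for pdi-2. In the shared pair 2 of the 17 were higher than at day 3, the lysyl hydroxylase let-268 (0.85) and the thioredoxin-like dpy-11 (1.11), where 5.26% of all genes were called higher, and against day 4 controls 10 were higher and 1 lower, where 48.3% of all genes were called. In rps-10(0)/+ 5 were higher than in the day 4 control, where 15.5% of all genes were called higher. Against day 3 controls dpy-18 did not pass in rps-10(0)/+ (-0.40, adjusted p = 0.719) or in rps-23(0)/+ (1.26, adjusted p = 0.740).

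The shared pair was compared with the mIn1 controls of either age, which asks whether day 4 mutants resemble larvae or adults in their collagens. Against day 4 adults 72 members differed, 52 higher and 20 lower, where 48.3% of all genes were called, with a median log2 fold change of 3.70 over the members and -0.03 over all genes. Against day 3 larvae 35 members differed, 17 higher and 18 lower, where 9.13% of all genes were called (5.26% higher and 3.87% lower), with medians of 0.18 and -0.02. Both comparisons share the libraries of the pair, and each shares its controls with the stage comparison above.

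Members above larvae included abundant ones. For col-175 the shared pair had 3353 and 1937 CPM, against 413 and 659.9 CPM in day 3 and 11.3 and 8.22 CPM in day 4 controls. Both mutant libraries were above all 4 controls, with log2 fold changes of 2.26 (SE 0.28, adjusted p = 4.06e-05) against day 3 and 7.99 (SE 0.39) against day 4. For col-138, the second most abundant member per kb, they had 3602 and 3883 CPM, against 762 and 1290.0 CPM and 14.5 and 14.1 CPM (1.83, SE 0.25, against day 3). Also higher than in larvae were col-49 (2.22), col-48 (1.98), col-109 (1.76) and col-73 (1.23, SE 0.28). Over the 17 higher members the log2 fold change against day 3 ran from 0.77 to 2.26.

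Members below larvae spanned a wider range. For col-41 the shared pair had 6.01 and 12.6 CPM, against 1154 and 428 CPM at day 3, and the fitted difference was -6.46 (SE 0.65, adjusted p = 4.53e-06). These values lay between those of the day 3 controls and the 0.808 and 0 CPM of the day 4 controls. For col-90 it had 132 and 118 CPM, against 968 and 524 CPM at day 3 (-2.63, SE 0.28). The pair also had less of col-170 (-3.28), col-147 (-3.28) and col-10 (-2.80). Values of col-147 differed within the pair, at 5.01 and 39.9 CPM. Over the 18 lower members the log2 fold change ran from -6.46 to -0.97.

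Of the adult members, col-19 was at 324 and 438 CPM in the shared pair, with 60.1 and 334 CPM at day 3 and 608 and 1793 CPM at day 4. It passed the test against day 4 (-1.76, SE 0.53, adjusted p = 0.0118) and not against day 3 (0.94, SE 0.54, adjusted p = 0.312). The largest falls against adults were those of col-143 (-4.43), col-101 (-3.91), col-95 (-3.85), col-135 (-3.55) and col-179 (-3.34). The largest rises were those of col-49 (8.04), col-104 (8.02), col-175 (7.99), col-109 (7.94) and col-138 (7.92). With the tmC5 controls in the same fit 36 members passed against day 4 and 0 against day 3, where 9 had an unadjusted p under 0.05 and DESeq2 in the original fit called 33.

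**Figure D3:**
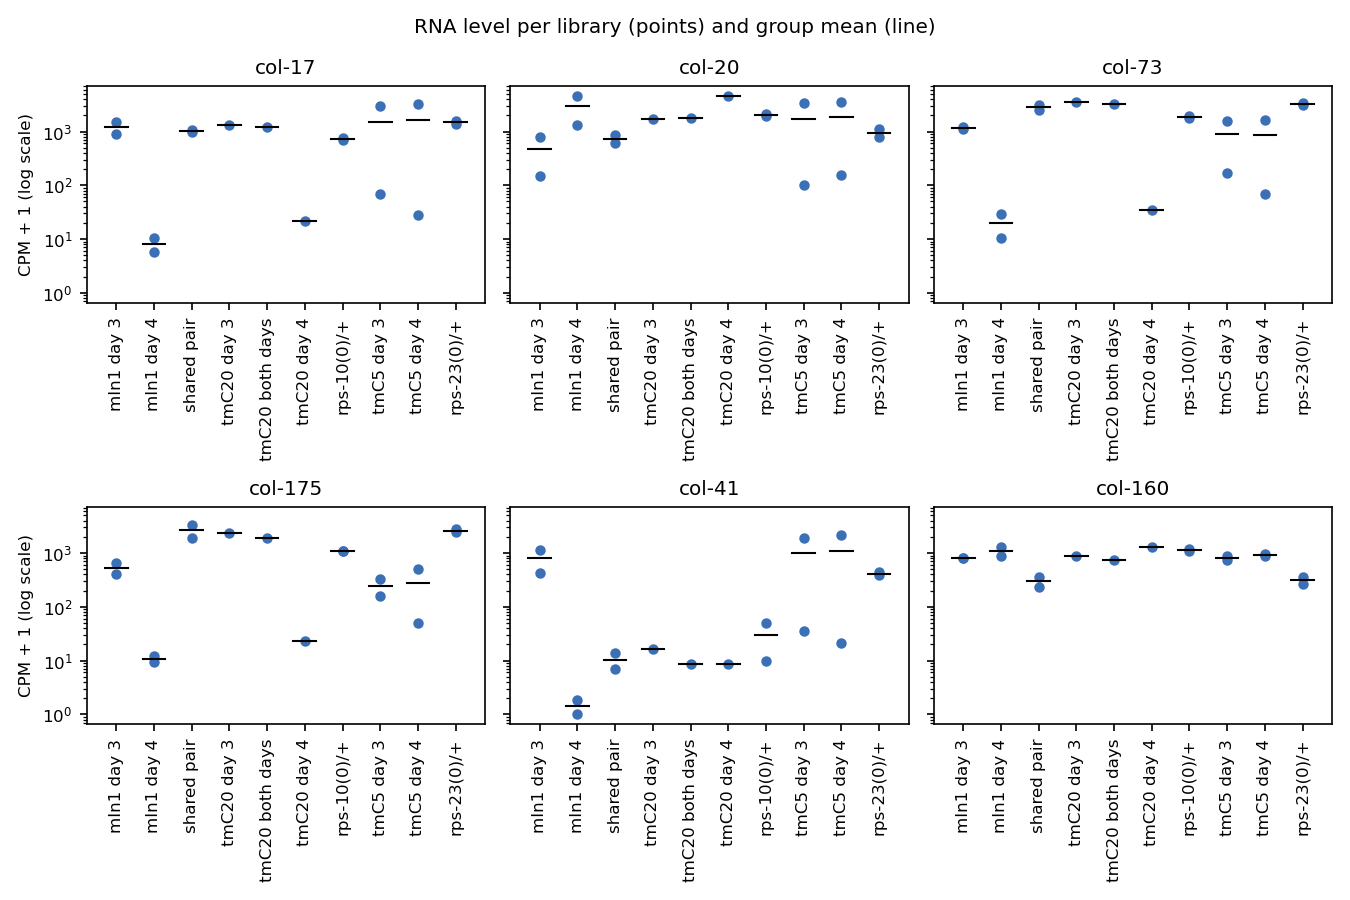
CPM (log10 axis, 1 added) of col-17, col-20, col-73, col-175, col-41 and col-160 in every RNA library, 1 point per library, by group, with a line at the group mean. In the shared pair and rps-23(0)/+, col-175 lies above every mIn1 or tmC5 control and col-160 lies below every control, and col-41 in the shared pair lies below both mIn1 day 3 points.

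Against its day 3 control rps-10(0)/+ showed few called differences, and against its day 4 control most members differed. Each tmC20 age had 1 library, whose spread was taken from the other groups. Against day 4, 62 members differed, 54 higher and 8 lower, where 26.2% of all genes were called (15.5% higher and 10.7% lower). The median log2 fold change was 3.83 (3.75 with the 4 members at 0 in the control set to their bounds), against a median of 0.00 over all genes. Against day 3, 6 members differed, all lower, where 0.609% of all genes were called (0.192% higher and 0.416% lower), and the median was -0.43 against 0.02 over all genes.

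The 6 lower members were col-48, col-104, col-120, col-130, col-155 and col-157. Of these col-120, a collagen linked to longevity, had 180.3 and 198 CPM in rps-10(0)/+, 795 CPM in the day 3 control, 549.5 CPM in the tmC20 library under both headings and 3.51 CPM in the day 4 control. Its log2 fold change against day 3 was -2.06 (SE 0.43, adjusted p = 0.0304). The mutant libraries lay between the larval and the adult control. For col-157 the values were 103 and 100.2 CPM, with 328, 252 and 0.702 CPM in the controls in the same order (-1.68, SE 0.32). The count was 0 without either rps-10(0)/+ library, 4 without either rps-23(0)/+ or mIn1 day 3 library, 10 without either library of the shared pair, and 12 or 13 without a mIn1 day 4 library. With the tmC20 library under both headings placed with day 3 it was 12, and with rps-10(0)/+ and tmC20 fitted alone it was 53.

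Against the day 4 control some members rose from 0 counts in the adult library. For col-146 rps-10(0)/+ had 270.4 and 178 CPM and the control 0, so that it was at least 106-fold higher when the control is set to 3 counts, and col-156 was at least 59.4-fold higher and col-182 at least 14.98-fold higher. The day 3 control had 199 CPM of col-146. The largest falls were those of col-135 (-3.99), col-143 (-3.86) and col-101 (-2.72). For col-143 rps-10(0)/+ had 49.9 and 73 CPM, the day 3 control 33.3 CPM and the day 4 control 875 CPM.

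The mIn1 classes, made from libraries that rps-10(0)/+ and its controls do not share, described the rps-10(0)/+ values as well. All 55 larval members had positive values against the tmC20 day 4 control, 52 of them called higher, with a median log2 fold change of 4.83, while of all 2057 genes high at day 3 in mIn1 901 were called higher, with a median of 1.09. Of the 22 adult members 18 had negative values and 5 were called lower, with a median of -0.81, while of all 2050 genes of that class 788 were called lower, with a median of -0.78. Against the day 3 control the 22 adult members all had positive values, with a median of 0.34 against 0.18 over all 2050 genes of that class. Of the 55 larval members 50 had negative values, with a median of -0.78 against -0.13 over all 2057 genes of that class. The summed adult members held 31404 and 28103 CPM in rps-10(0)/+, 22807 CPM in the day 3 control and 45149 CPM in the day 4 control. The summed larval members held 23573 and 23289 CPM, 39883 CPM and 861 CPM.

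Some members had lower levels in the tmC20 day 3 library than in mIn1 larvae. The members col-42, col-98 and col-103, not called by stage in mIn1 and named here after their values were seen, had 87.3, 50.02 and 50.02 CPM in the tmC20 day 3 control and 122, 55.9 and 58.6 CPM in the library under both headings. In mIn1 day 3 controls col-42 had 813 and 902 CPM, col-98 had 609.6 and 677 CPM, and col-103 had 442 and 460.1 CPM. The adult tmC20 control was at 969.5, 974 and 618 CPM. In rps-10(0)/+ col-42 was at 348 and 450.5 CPM, and none of these members passed against day 3 (2.20, 2.46 and 2.26, adjusted p = 0.0877, 0.113 and 0.162), while all passed as lower against day 4 (-1.31, -1.86 and -1.41).

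Changes in rps-23(0)/+ depended on the 2 tmC5 columns that lie with the other age. With all tmC5 columns, 0 members passed against day 3, where 0.287% of all genes were called by edgeR (0.181% higher and 0.106% lower), with 20 members at an unadjusted p under 0.05 and 8 called by DESeq2. Against day 4, 1 member passed, col-88, where 0.393% of all genes were called (0.255% higher and 0.138% lower), with 19 at an unadjusted p under 0.05. Without those columns 53 members passed against day 3, 33 higher and 20 lower, where 5.4% of all genes were called (2.51% higher and 2.88% lower). Against day 4, 78 then passed, 53 higher and 25 lower, where 38.6% of all genes were called (18.5% higher and 20.1% lower), with 1 control library left at each age. Against day 4, leaving out the first day 4 column alone gave 22 calls, leaving out either day 3 library gave 5, and leaving out a library of rps-23(0)/+ gave 0. Against day 3, leaving out either day 4 column gave 5.

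Single members of rps-23(0)/+ could be placed against all 4 tmC5 libraries. For col-88 the mutant had 234 and 213 CPM, against 46.2, 41.6, 28.9 and 23.6 CPM (3.10, SE 0.55, adjusted p = 0.0459 against day 4). Both mutant libraries were above every control. For col-49 it had 1289 and 1002 CPM, against 66.7, 119.8, 154 and 32.7 CPM (3.63, SE 0.67, adjusted p = 0.0505 against day 3), also without overlap. For col-175 it had 2749 and 2435 CPM, against 157, 328, 503 and 49.9 CPM (3.43, SE 0.83, adjusted p = 0.133 against day 3). For col-138 it had 5367 and 4721 CPM, against 279, 662, 895 and 138.2 CPM (3.43, SE 0.73, adjusted p = 0.0865 against day 3). By contrast col-41, at 434 and 394 CPM, was below the 1931 and 2150.5 CPM of the tmC5 libraries that lay with larvae. It was above the 35 and 20.4 CPM of those that lay with adults.

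Members that were high or low in the shared pair were described in the other mutants, whose controls are different libraries. The 17 members above mIn1 day 3 all had positive values in rps-23(0)/+ against tmC5 of both ages, with a median log2 fold change of 2.61 and 0 calls, while all 491 genes above mIn1 day 3 in the shared pair had a median of 0.97. The 18 members below mIn1 day 3 had negative values in 17 cases with a median of -1.37, against -0.68 over the 359 genes of that class. Without the 2 tmC5 columns, 1 control library was left at each age. Against tmC5 day 3 all 17 then had positive and all 18 negative values, with medians of 1.82 and -2.23. Values over all genes of these classes were not computed for this fit. In rps-10(0)/+ the 17 members all had negative values against tmC20 day 3, with a median of -0.91 (0.07 over the 493 genes of that class). The 18 members had 8 positive and 10 negative values with a median of -0.28 (-0.11 over the 362 genes of that class). Summed moulting genes were at 5461 and 10452 CPM in the shared pair, with 5851 and 5863 CPM in its day 3 controls. In rps-10(0)/+ they were at 1126 to 1447 CPM, with 764 CPM in its day 3 control and 1077 CPM in the tmC20 library under both headings. The part of moulting genes in these values was not tested.

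**Figure D4:**
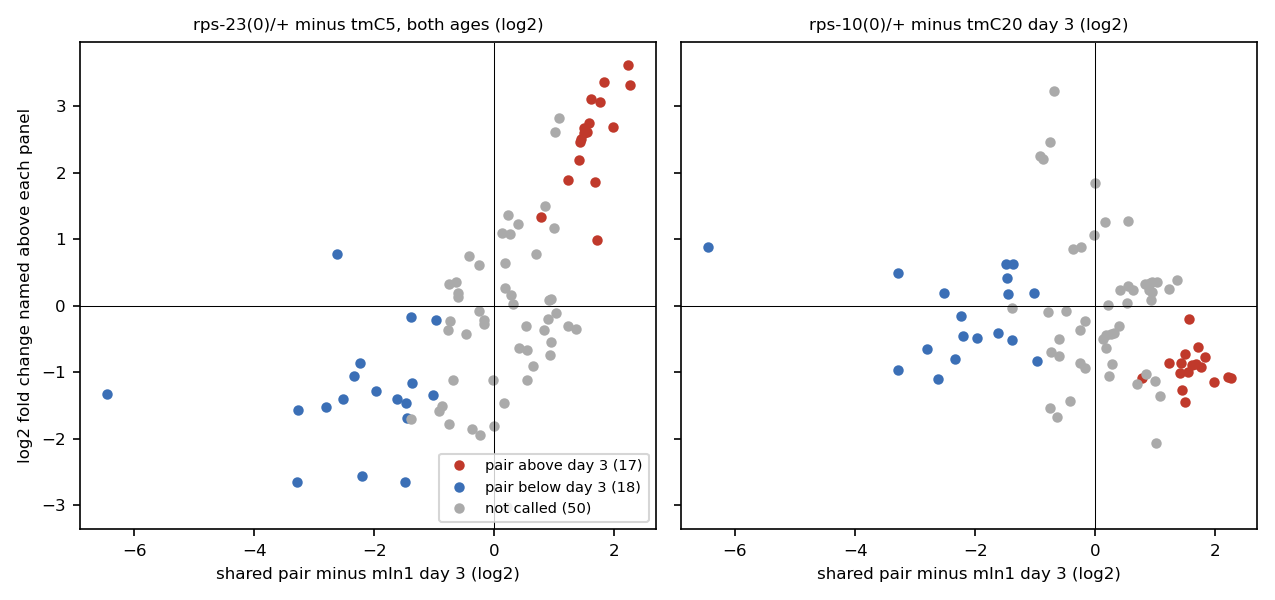
Log2 fold change of each of the 85 members in the shared pair against mIn1 day 3 (horizontal) and, on the vertical axis, in rps-23(0)/+ against tmC5 of both ages (left) or in rps-10(0)/+ against tmC20 day 3 (right), coloured by the call in the shared pair (17 above, 18 below, 50 not called). The 17 members above lie at 0.99 or higher in the left panel and below 0 in the right panel.

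With controls of both ages in 1 group few members passed. The controls then held larvae and adults. In the shared pair 2 members passed, both lower, where 2.54% of all genes were called (1.87% higher and 0.679% lower). In rps-23(0)/+ 1 passed, also lower, where 0.625% of all genes were called (0.377% higher and 0.248% lower). In rps-10(0)/+ 0 passed by edgeR, 0 had an unadjusted p under 0.05 and 0 passed by DESeq2, where 0.129% of all genes were called (0.0862% higher and 0.0431% lower).

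The member that passed in both was col-160, one of the 8 members not called by stage. The test favoured members that change little with stage, so passing does not rank col-160 above the others. The shared pair had 234.6 and 365 CPM, against 804, 812, 874 and 1285 CPM in mIn1 controls (-1.65, SE 0.31, adjusted p = 0.0116). The rps-23(0)/+ libraries had 265 and 357 CPM, against 752, 873, 875 and 942 CPM in tmC5 controls (-1.47, SE 0.30, adjusted p = 0.0435). In each case both mutant libraries were below all 4 controls. In rps-10(0)/+ the values, 1206 and 1084 CPM, lay within the 739.7 to 1315 CPM of tmC20 controls. The second member lower in the shared pair was col-93, at 183 and 282 CPM against 433, 455, 464 and 862 CPM (-1.25, SE 0.31, adjusted p = 0.0498), and in rps-23(0)/+ it had 222 and 247 CPM against 485 to 686 CPM (-1.33, SE 0.31, adjusted p = 0.078). Its call was lost in 15 of the 17 fits that left out 1 library. That of col-160 was lost in 1 of 17 fits in the shared pair, the one without its first library, and in 12 of 17 in rps-23(0)/+. Without the 2 tmC5 columns col-160 was still called in the shared pair, and 0 members were called in rps-23(0)/+, where 0.13% of all genes were called and 3 members had an unadjusted p under 0.05. The overlapping near copy col-159 had 321 and 434 CPM in the shared pair against 396 to 667 CPM in mIn1 controls and did not pass (-0.47, SE 0.33).

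Differences between the mutants in these changes were tested directly, and 0 members passed for any pair of mutants or in the joint test by edgeR. Unadjusted p values under 0.05 were found for 2 members between the shared pair and rps-10(0)/+, 0 between the shared pair and rps-23(0)/+, 3 between rps-10(0)/+ and rps-23(0)/+ and 2 in the joint test. DESeq2 called 1, 0 and 1 members for the pairs. Of all genes 0.151% were called between the shared pair and rps-10(0)/+ (0.108% higher and 0.0431% lower), 0% in the other pairs and 0.0216% in the joint test. These tests used controls of both ages, so that change with stage counted as spread. The median SE over the members was 2.07 between the shared pair and rps-10(0)/+ and 1.99 between the shared pair and rps-23(0)/+. Between rps-10(0)/+ and rps-23(0)/+ it was 2.06. With such SE the absence of calls does not show that the mutants were alike. A difference between mutants in the changes against day 3, where rps-10(0)/+ had the opposite sign for the 17 members, was not tested.

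Members with a known use gave the following levels. The collagens col-10, col-13, col-120 and col-144 are raised in long-lived mutants, and all were in the larval class. In the shared pair col-10 (92.2 and 159 CPM) and col-144 (97.2 and 86.2 CPM) were below day 3 controls (989.8 and 706 CPM, and 523 and 369.8 CPM), while col-13 did not pass (-0.18, SE 0.26) and col-120 did not pass (1.01, SE 0.40, adjusted p = 0.131). In rps-23(0)/+ col-10 was at 173 and 126 CPM. This was below the 857 and 830 CPM of the tmC5 libraries that lay with larvae. It was above the 25.7 and 7.99 CPM of those that lay with adults. In rps-10(0)/+ col-120 alone of these passed against day 3. The transmembrane collagen col-99 was rare in every library, between 3.23 and 64.1 CPM, and was lower at day 4 in mIn1 controls (-2.58, SE 0.47). Of other collagens used as stage markers, the adult genes col-7 and col-62 and the dauer gene col-2 have no row in the RNA table and 0 Ribo-seq counts, and the dauer gene col-40 had 4 Ribo-seq counts in all.

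Ribo-seq libraries were far shallower, with 1081 to 9637 counts each. Members took 2715 of 66009 Ribo-seq counts, and 82 of 85 members had at least 1 count. The 8 most counted members held 826 counts, or 30.4% of them. The share of a library that fell on members ran from 1.55% (exact binomial 95% interval 1.01% to 2.26%) in 1 rpl-33(0)/+ library to 7.02% (6.39% to 7.70%) in 1 library of mIn1 day 4. Intervals cover counting error only. Summed over replicates, rpl-33(0)/+ had 2.72% and rpl-5(0)/+ 4.62%, with 3.30% at day 3 and 5.99% at day 4 of mIn1. It was 4.70% in rps-10(0)/+, with 4.93% and 4.91% in tmC20, and 2.76% in rps-23(0)/+, with 2.16% and 3.37% in tmC5.

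**Figure D5:**
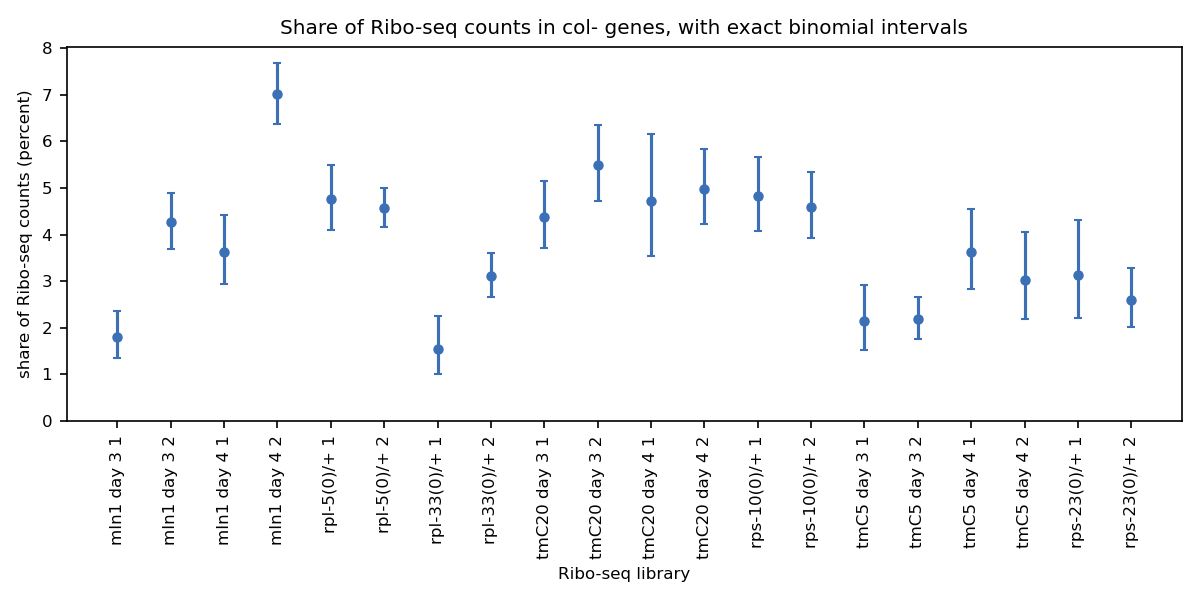
Percent of Ribo-seq counts that fell on the 85 members in each of the 20 libraries, with exact binomial 95% intervals, which cover counting error only. Replicates of mIn1 day 3 (1.80% and 4.26%) and mIn1 day 4 (3.62% and 7.02%) differ by more than their intervals.

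Only 8 members had enough Ribo-seq counts to be tested, all of them adult-class members. They met the count filter mostly in day 4 libraries, as col-122 did with 12 and 43 counts in mIn1 day 4 and 1 and 12 in mIn1 day 3. The filter thus favoured members higher at day 4, and the direction of their change by age is no separate result. Averaged over the balancers, 3 of the 8 were higher at day 4 than at day 3, where 30.6% of the 49 genes tested were called (14.3% higher and 16.3% lower). For col-20 the controls held 58 counts at day 4 and 16 at day 3 (log2 fold change 1.95, SE 0.47, adjusted p = 0.0061). For col-140 they held 67 and 24 counts (1.67, SE 0.63, adjusted p = 0.0478), and for col-181 they held 66 and 21 counts (1.60, SE 0.61, adjusted p = 0.0499). The other 5, col-80, col-106, col-122, col-124 and col-184, also had positive values, between 0.68 and 1.80, and did not pass. DESeq2 called 1 of the 8, and between 2 and 9 members passed when 1 Ribo-seq library was left out, which also changes how many can be tested. Against controls of both ages 0 of the 8 passed in any mutant by edgeR or DESeq2, 0 had an unadjusted p under 0.05, and the median log2 fold change over the 8 was -1.57 for rpl-33(0)/+ and -0.67 for rpl-5(0)/+, both against mIn1, where 16.3% and 10.2% of genes tested were called. For rps-10(0)/+ against tmC20 the median was 0.08, with 0% called, and for rps-23(0)/+ against tmC5 it was -1.001, where 4.08% were called (2.04% in each direction).

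The larval member with the most Ribo-seq counts was col-138, which did not pass the filter. It had 0 and 17 counts in the rpl-33(0)/+ libraries, 13 and 30 in rpl-5(0)/+ and 2 and 7 in rps-23(0)/+, with 2 and 0 in mIn1 day 3 controls and 0 in both mIn1 day 4 controls. In tmC20 it had 3 and 9 counts at day 3 and 0 at day 4, and in rps-10(0)/+ 0 and 1. The tmC5 controls held 1 count in 4 libraries. Unlike the RNA columns, the Ribo-seq columns of rpl-33(0)/+ and rpl-5(0)/+ were separate.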

How the data were processed

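Per the study's methods, each lysate was split for RNA-seq and Ribo-seq, and RiboFlow mapped reads against the WBcel235 transcriptome. The authors deposited raw counts per gene, and for Ribo-seq they first collapsed reads by molecular identifier. How reads shared by near copies were assigned is not given in the sources used here. Identical columns were used once, and 6 Ribo-seq columns under R4 headings, all identical to a used column, were left out.

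Genes passing filterByExpr were tested in edgeR 4.0.16 (R 4.3.3) with TMM scaling and quasi-likelihood F tests, p-values were adjusted by Benjamini-Hochberg over all genes tested, and the threshold was 0.05. SE is the absolute log2 fold change divided by the root of F. Stage, shared pair and rps-10(0)/+ comparisons by age came from 1 fit of 13 libraries without the tmC5 controls. Earlier results had shown 1 tmC5 column of each day to lie with the other age of the other balancers. Comparisons of rps-23(0)/+ by age, and all those with both ages, used 17 libraries. The members, lists and classes were chosen with earlier results of these data known. The 45 named members are the 10 most abundant, up to 5 or 3 per direction in each comparison, those with a known use and the 8 with the most Ribo-seq counts, and any other is said to be named after its values were seen. Gene models came from the Ensembl annotation of WBcel235 and sequences from the RefSeq genome of that build. Scripts were tested on simulated data. DESeq2 1.42.0, Python 3.11.15, numpy 2.4.6, pandas 2.3.3, scipy 1.17.1 and matplotlib 3.10.9 were also used. Alternatives were other scalings, DESeq2, other filters and groupings, a replicate block, and leaving out each library.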

Additional observations from a re-analysis of the deposited data

Results flagged for a closer look

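Each named member, and the share of counts in all members, was examined in the 4 mIn1 and in the 4 tmC5 control libraries for a library far from the others, 92 groups in all. Among alike libraries chance gives about 1 in 20, but each group mixed larval and adult libraries. A member that changes with stage splits such a group by age, so the check could hardly find 1 library apart. The only value found was that of col-93 in the second mIn1 day 4 column, at 861.6 CPM, whose gap to the next library was 0.898 of the range on the log2 scale. Ribo-seq libraries also held 108 counts on 34 col- genes that are not in the RNA table, above the 3 counts that a count of 0 allows, and 16 of them were on col-176.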

How the results depend on the processing

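With at least 10 counts required in every library, which removes members absent from adults, members called were 35 by stage in mIn1, 13 and 31 in the shared pair against day 3 and day 4, 1 and 20 in rps-10(0)/+ against day 3 and day 4, and 0 in rps-23(0)/+ against day 4. The median over the members then changed sign by stage (0.51), in the shared pair against day 4 (-0.88) and in rps-10(0)/+ against day 3 (0.23). With all 17 libraries in the by-age fit the counts were 4 by stage, 0 and 36 in the shared pair, and 0 and 1 in rps-10(0)/+. With library totals the median of the shared pair against day 3 was -0.013, and rps-23(0)/+ had 1 call against day 3, 3 against day 4 and 2 with both ages. With DESeq2 size factors rps-23(0)/+ had 1 and 2 calls by age and the shared pair 1 with both ages. The DESeq2 Wald test called 8 and 8 in rps-23(0)/+ by age, 3 with both ages, 1 in the difference of the shared pair and rps-10(0)/+, 1 in that of rps-10(0)/+ and rps-23(0)/+, and 1 in Ribo-seq by age. Fitted alone, rps-10(0)/+ had 53 calls against day 3, rps-23(0)/+ 0 against day 4 and 0 with both ages, and the shared pair 0 with both ages. With each control age a group and their mean as control, the shared pair had 16 calls and rps-23(0)/+ 7. With tmC20 replicate 2 at day 3, rps-10(0)/+ had 12. Without the 2 tmC5 columns lying with the other age, rps-23(0)/+ had 53, 78 (median 2.85) and 0 calls and the shared pair 1 with both ages. With no filter Ribo-seq gave 7 calls in rpl-5(0)/+ and 1 by age. Without the highest member, shares were 2.04% at the lowest, 3.71% at the median and 6.24% at the highest.

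Replicate 1 minus replicate 2 was compared among the shared pair, rps-10(0)/+, rps-23(0)/+ and the tmC5 day 3 controls. Same-numbered libraries of these groups did not deviate together (r from -0.047 to 0.065 over 8519 genes). Other controls were not in this check, and tmC5 day 3 replicate 1 lay with the adults. The check therefore cannot decide whether the numbers pair a mutant with its own controls. With a replicate block on the numbered columns, 53 members were called in the shared pair against day 3, 2 in rps-23(0)/+ against day 3 and 0 with both ages in either. On the same columns without the block the counts were 52, 4 and 0, and 14 in rps-10(0)/+ against day 3.

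Leaving out each library gave 72 to 77 calls by stage, 25 to 47 and 66 to 80 in the shared pair against day 3 and day 4, 0 to 13 and 58 to 63 in rps-10(0)/+, 0 to 5 and 0 to 22 in rps-23(0)/+, 0 to 2 with both ages in the shared pair and in rps-23(0)/+, 0 to 1 and 0 to 2 in the differences of rps-10(0)/+ from the shared pair and from rps-23(0)/+, 0 to 2 in rpl-5(0)/+ Ribo-seq and 2 to 9 in Ribo-seq by age. Medians ran from -0.087 (without mIn1 day 3 replicate 1) to 0.48 in the shared pair against day 3, from -0.20 to 2.18 (without tmC5 day 3 replicate 2) in rps-23(0)/+ against day 3, and from -0.31 to 3.02 (without the first tmC5 day 4 column) against day 4, so that each of the named libraries turned the sign. An arm left with 1 library borrows its spread from the other groups. Placing tmC5 day 4 replicate 2 by its labelled stage was not run, because both day 4 columns share a heading.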
